A study of Mus musculus with 14 samples.

Results

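The imprinted Dlk1-Meg3 locus of mouse chromosome 12 was followed in knockout and wild-type embryonic stem cells and in the tissues formed from them. Its members were chosen by gene symbol, as a list of 6 genes. These are Dlk1, Rtl1 and Dio3, which are transcribed from the paternal chromosome, and Meg3, Rian and Mirg, noncoding genes transcribed from the maternal chromosome. All probe sets of these symbols were used on every array. Of the 6 genes, 4 had a probe set with their name in the platform annotation used here, with 2 probe sets for Dlk1, 11 for Meg3, 4 for Rian and 2 for Mirg, out of 45101 probe sets for 18194 genes in all. Rtl1 and Dio3 were named on no probe set of that annotation and were not analysed here, so that Dlk1 alone stands for the paternally expressed side. The locus itself was selected on measured values, those of Dlk1 in TKO EB against TKO ESC, where its rise had been seen among the largest. The change from TKO ESC to TKO EB is therefore described without a test.

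Expression was measured on microarrays in embryoid bodies (EB), aggregates in which stem cells differentiate, and in embryonic stem cells (ESC), the undifferentiated cells they come from. The arrays were 5 of TKO EB (lines 14-14-4, 2-55-2, 7-4-1, Dutch and Ta1-12), 3 of WT EB (B21, J1 and R1), 3 of TKO ESC (7-4-1, Dutch and Ta1-12) and 3 of WT ESC (B21, J1 and R1). TKO is not spelled out in the labels and was read as the joint knockout of Rb1, Rbl1 and Rbl2, since the title names the Rb gene family, a set of repressors of cell cycle entry. Each array is a different line or a different stage of the same line. The sources used here do not state the strain of each line, its clonal origin, the use of feeder cells or the length of EB culture. The arrays read the total of both alleles and cannot assign a transcript to a parental chromosome.

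An imprinted locus is expressed from one parental chromosome according to DNA methylation set in the germ line. At this locus a control region between Dlk1 and Meg3 is methylated on the paternal chromosome. On the maternal chromosome it is unmethylated, the noncoding genes are transcribed and Dlk1 is silent, and methylation gained on the maternal chromosome silences the noncoding genes and releases Dlk1, Rtl1 and Dio3. Dlk1 is a membrane protein related to Notch ligands and known from fetal mesenchyme, muscle and preadipocytes. Meg3 is a long noncoding RNA, Rian is a host of small nucleolar RNAs and microRNAs, and Mirg is a host of microRNAs. Cultured mouse pluripotent lines are known to differ in whether the noncoding genes are active.

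The annotated start of Meg3 is shown because the signal of the noncoding genes was present in some lines and near background in others, and that of Dlk1 because it stands on the other side of the imprint. Both are RefSeq promoter windows of build GRCm38.p6, from 250 bases before to 50 bases after the start, plus strand, chr12:109540746-109541045 for Meg3 (the upstream of its annotated starts) and chr12:109452573-109452872 for Dlk1. Capitals mark CG dinucleotides, the bases at which such regions are methylated.
Meg3: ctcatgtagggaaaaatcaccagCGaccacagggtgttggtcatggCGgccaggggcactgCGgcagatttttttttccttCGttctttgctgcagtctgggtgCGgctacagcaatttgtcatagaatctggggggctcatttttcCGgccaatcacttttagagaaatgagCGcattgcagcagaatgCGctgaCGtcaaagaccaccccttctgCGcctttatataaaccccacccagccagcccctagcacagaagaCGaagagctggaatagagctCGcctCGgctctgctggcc
Dlk1: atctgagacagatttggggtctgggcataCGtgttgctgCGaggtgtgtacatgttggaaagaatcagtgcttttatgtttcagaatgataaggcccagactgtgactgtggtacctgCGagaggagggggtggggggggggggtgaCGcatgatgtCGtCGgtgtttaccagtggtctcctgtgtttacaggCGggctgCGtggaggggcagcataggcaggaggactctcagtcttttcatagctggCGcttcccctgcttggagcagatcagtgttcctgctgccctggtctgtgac
The Meg3 window holds 13 CG dinucleotides, a number that 37.9% of 32851 promoter windows reach, and the Dlk1 window holds 9, which 45.8% reach. Searched on both strands, the hexamer TGCCGC, known to be bound by the imprint guard Zfp57 when methylated, occurs in the Meg3 window 1 time, on the opposite strand and starting at position -190 from the start. It occurs in 11.61% of all windows and was not found in the Dlk1 window. The letters TGACGTCA of a cAMP response element occur at position -57 of the Meg3 window and in 1.79% of all windows, and not in the Dlk1 window. The letters TATAAA, searched on both strands, occur in the Meg3 window 2 times in overlapping positions, the first at -29 on the opposite strand. Of all windows 13.62% hold at least 1 match and 2.4% at least 2, and the Dlk1 window holds none. These matches describe letters and not sites of binding.

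The noncoding side also carries microRNAs, which the arrays did not measure. Between the start of Meg3 and the end of Mirg the RefSeq table lists 57 microRNA hairpins, 54 of them on the plus strand, with 10 inside Mirg, 3 inside Rian and 1 inside Meg3. The mature forms below are shown as examples of what the noncoding transcripts carry, with the seed (bases 2 to 8) in capitals. The first pair is known to be antisense to Rtl1, the third lies inside Rian and the last inside Mirg, at chr12:109592888-109592909, chr12:109595331-109595352, chr12:109618305-109618326 and chr12:109743764-109743784, plus strand, GRCm38.p6. No seed is shared between them.
mmu-miR-127-3p: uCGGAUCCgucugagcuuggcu
mmu-miR-136-5p: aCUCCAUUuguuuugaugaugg
mmu-miR-370-3p: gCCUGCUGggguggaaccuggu
mmu-miR-410-3p: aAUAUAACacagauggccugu

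Rbl1, a targeted gene, divided the lines. It read 15.9, 31.7 and 38.3 in TKO EB of 14-14-4, 2-55-2 and 7-4-1 and 24.5 in TKO ESC of 7-4-1, while the arrays labelled TKO Dutch (377.1 in EB, 250.3 in ESC) and TKO Ta1-12 (1095.9 in EB, 492.5 in ESC) stood higher, against 355.6 to 1089.6 in WT. Rbl2 read 296.8 to 1098.7 in TKO EB against 722.8 to 1726.9 in WT EB. In ESC its values were 658.5 to 843.2 for TKO against 411.1 to 661.3 for WT. Rb1 read 300.5 to 912.8 in TKO EB against 407.1 to 1018.4 in WT EB. In ESC it was at 115.9 to 607.1 for TKO against 138 to 790.6 for WT, so that its groups overlapped at both stages. Probes outside a deleted part check nothing, and the place of these probes is not stated in the labels, so lines Dutch and Ta1-12 are called TKO by their labels throughout. Pou5f1, a marker of pluripotent cells, was 6132.8, 1542.2, 146.8, 7410.3 and 17.1 in TKO EB of 14-14-4, 2-55-2, 7-4-1, Dutch and Ta1-12, against 32.8 to 55.2 in WT EB, and at least 9879.8 in every ESC array. Array medians lay between 83.2 and 107.9.

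Dlk1 was low on every ESC array and among the brightest signals on every EB array. Its brighter probe set read 19427, 16850, 20898.1, 8368.1 and 12724.2 in TKO EB of 14-14-4, 2-55-2, 7-4-1, Dutch and Ta1-12. In WT EB it read 16133.3, 10817 and 11448.4 for B21, J1 and R1. In ESC the values were 43, 46.5 and 54.1 for TKO 7-4-1, Dutch and Ta1-12, against 51.7, 92 and 167.3 for WT B21, J1 and R1. Every EB array was higher than every ESC array, while the genotypes overlapped at both stages. Of all genes tested, 36.9% did not overlap between TKO EB and TKO ESC and 60.9% did not overlap between WT EB and WT ESC.

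Among measured members Dlk1 alone passed the test in WT EB against WT ESC (limma with Benjamini-Hochberg adjustment over 14360 genes, threshold 0.05). It rose by 7.09 ± 0.40 on the log2 scale (SE, n = 3 and 3, adjusted p = 6.88e-07). Its ESC signal lay at the 36 to 40.6 percentile of all probe sets in TKO and at the 39.4, 50.7 and 60.9 percentile in WT B21, J1 and R1. The TKO and B21 values are as low as those of Meg3 on its low arrays, so the size of each difference of Dlk1 between EB and ESC depends on background and may be understated. Of all genes tested 43.9% passed in this comparison, 26.5% as higher and 17.4% as lower, so the count of 1 of 4 members is below the background share and says little about the locus as a whole. In TKO EB against TKO ESC the log2 difference was 8.29 ± 0.36 (SE, n = 5 and 3), given as a description. The second Dlk1 probe set was dim. It read 241.1, 134, 203.8, 27.2 and 63.9 in TKO EB of 14-14-4, 2-55-2, 7-4-1, Dutch and Ta1-12, against 59.5, 49.3 and 50.9 in WT EB of B21, J1 and R1, and 10.6 to 22.3 in ESC of both genotypes. It too was higher on every EB array than on every ESC array. All ESC values lay under the intensity of 32 to which lower values were raised before taking log2, so its difference in WT EB against WT ESC (0.73 ± 0.57, adjusted p = 0.322 by limma over all probe sets) is understated.

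Meg3 was present in all WT arrays and near background on 4 of the 8 TKO arrays. Its brightest probe set read 53, 51.7, 46.8, 1241.4 and 5831.6 in TKO EB of 14-14-4, 2-55-2, 7-4-1, Dutch and Ta1-12, against 13547.1, 12391.7 and 4797.7 in WT EB of B21, J1 and R1. In TKO ESC it read 66.4, 5079.1 and 6936.8 for 7-4-1, Dutch and Ta1-12, against 6596.7, 4443.6 and 5413.4 in WT ESC of B21, J1 and R1. The low arrays are the EB of 14-14-4, 2-55-2 and 7-4-1 and the ESC of 7-4-1, at the 34.4 to 45.6 percentile of all probe sets on their array, whereas each of the other arrays lay at the 85.4 percentile or higher. TKO EB and WT EB overlapped, because TKO EB Ta1-12 stood above WT EB R1. Only 7-4-1 among these lines was measured as ESC, and there Meg3 was low before differentiation.

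Rian divided the arrays in a similar way, except that TKO EB Dutch stood nearer the low arrays, at the 49.1 percentile. In TKO EB it read 27.2, 39.2, 32.6, 85.5 and 559 for 14-14-4, 2-55-2, 7-4-1, Dutch and Ta1-12, against 1308.4, 1439.3 and 602.7 in WT EB of B21, J1 and R1. In TKO ESC it read 16.4, 504.2 and 896 for 7-4-1, Dutch and Ta1-12, against 569, 592.9 and 719.9 in WT ESC of B21, J1 and R1. On this brightest probe set every TKO EB array was lower than every WT EB array, with Ta1-12 just under R1. The 4 arrays low in Meg3 were the 4 lowest here too.

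Mirg, the last gene of the cluster, read 59, 49.9, 54.8, 62.7 and 257.4 in TKO EB of 14-14-4, 2-55-2, 7-4-1, Dutch and Ta1-12. In WT EB it read 786.3, 917.5 and 312.2 for B21, J1 and R1. The ESC values were 42.2, 267.2 and 714.7 for TKO 7-4-1, Dutch and Ta1-12, against 326.5, 388 and 403 for WT B21, J1 and R1. EB of line Dutch, intermediate for Meg3, was within 4 intensity units of 14-14-4 for Mirg. On this brighter probe set again no TKO EB array reached the WT EB values. On the dimmer one TKO EB Ta1-12 read 129.4, just above WT EB R1 at 128.5.

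**Figure D1:**
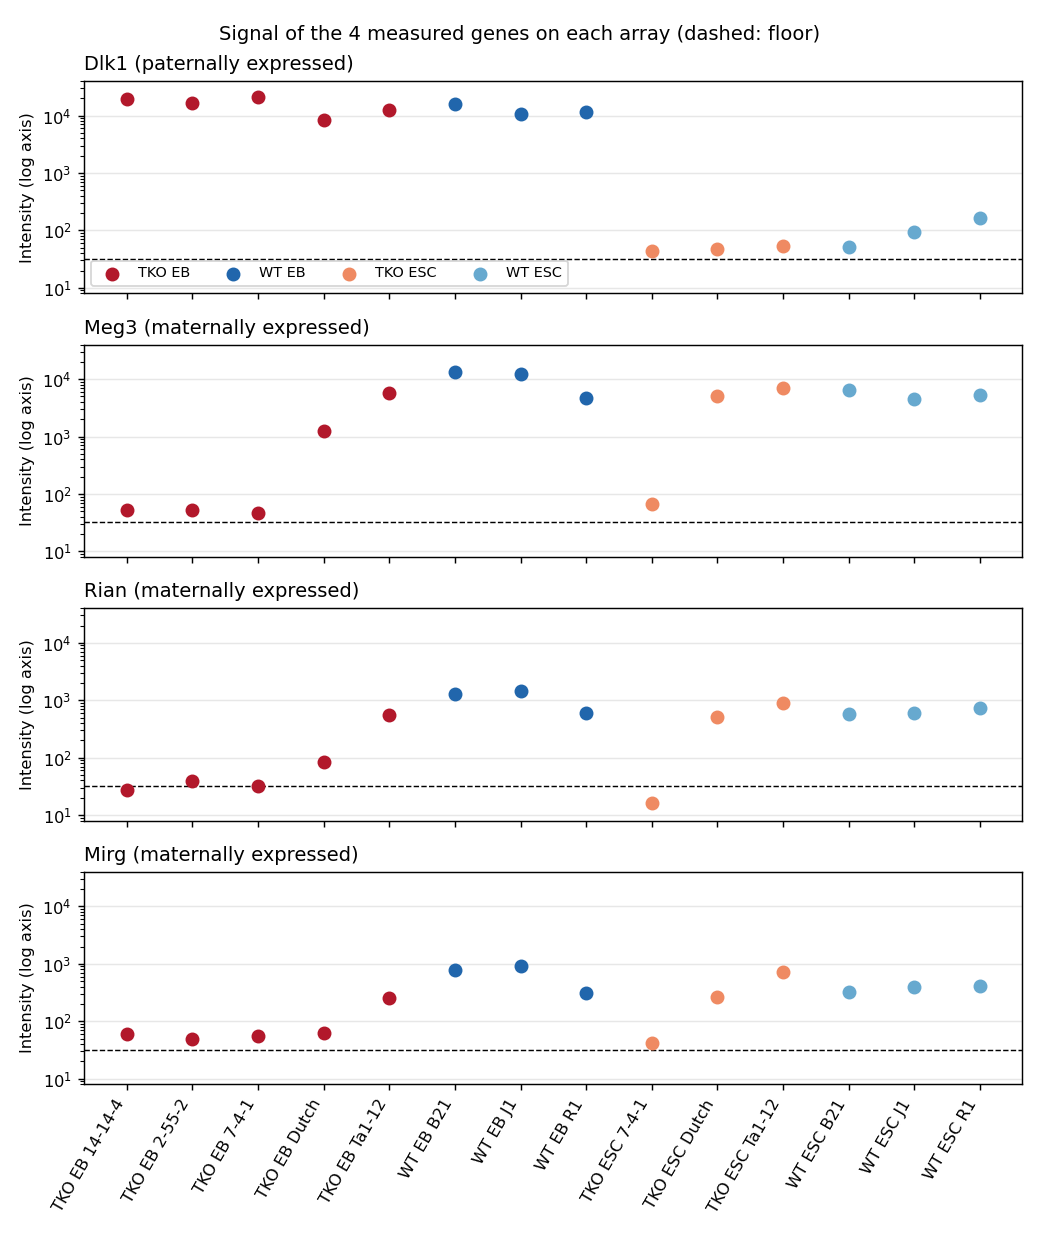
Intensity (log axis) of the brightest probe set of Dlk1, Meg3, Rian and Mirg on each of the 14 arrays, 1 point per array, coloured by group; the dashed line is the floor of 32. Dlk1 separates all EB arrays from all ESC arrays, while Meg3, Rian and Mirg are near the floor in TKO EB 14-14-4, 2-55-2 and 7-4-1 and in TKO ESC 7-4-1.

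Most probe sets of the noncoding genes had the same 4 lowest arrays. For 12 of the 17 probe sets (6 of 11 for Meg3, 4 of 4 for Rian and 2 of 2 for Mirg) the 4 lowest of 14 arrays were TKO EB 14-14-4, 2-55-2 and 7-4-1 and TKO ESC 7-4-1. For the other 5, all of Meg3, the 4 lowest included TKO EB Dutch, in 1 case with WT ESC R1 and in 1 with TKO ESC Ta1-12. On these low arrays 9 to 11 of the 17 probe sets lay under an intensity of 32, and the brightest of the 17 reached 129.9 to 148.8, the value of a Meg3 probe set that ran only between 129.9 and 249.6 over all arrays. On WT arrays 0 or 1 of the 17 lay under 32. Another pair of Meg3 probe sets was also dim on every array, with medians of 92.7 and 58.7 in TKO EB against 126.7 and 106.5 in WT EB. The Meg3 probe set that did not pass the filter on dim probe sets read 2.5 to 34.8 in TKO EB against 28.7 to 157.1 in WT EB. The brightest Meg3 probe set is of the type marked _x_at, whose probes can bind related transcripts, and the next brightest read 32.6, 19.5, 20.6, 994.7 and 5239.5 in TKO EB of 14-14-4, 2-55-2, 7-4-1, Dutch and Ta1-12, against 10314.4, 8738.1 and 4108.4 in WT EB of B21, J1 and R1.

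**Figure D2:**
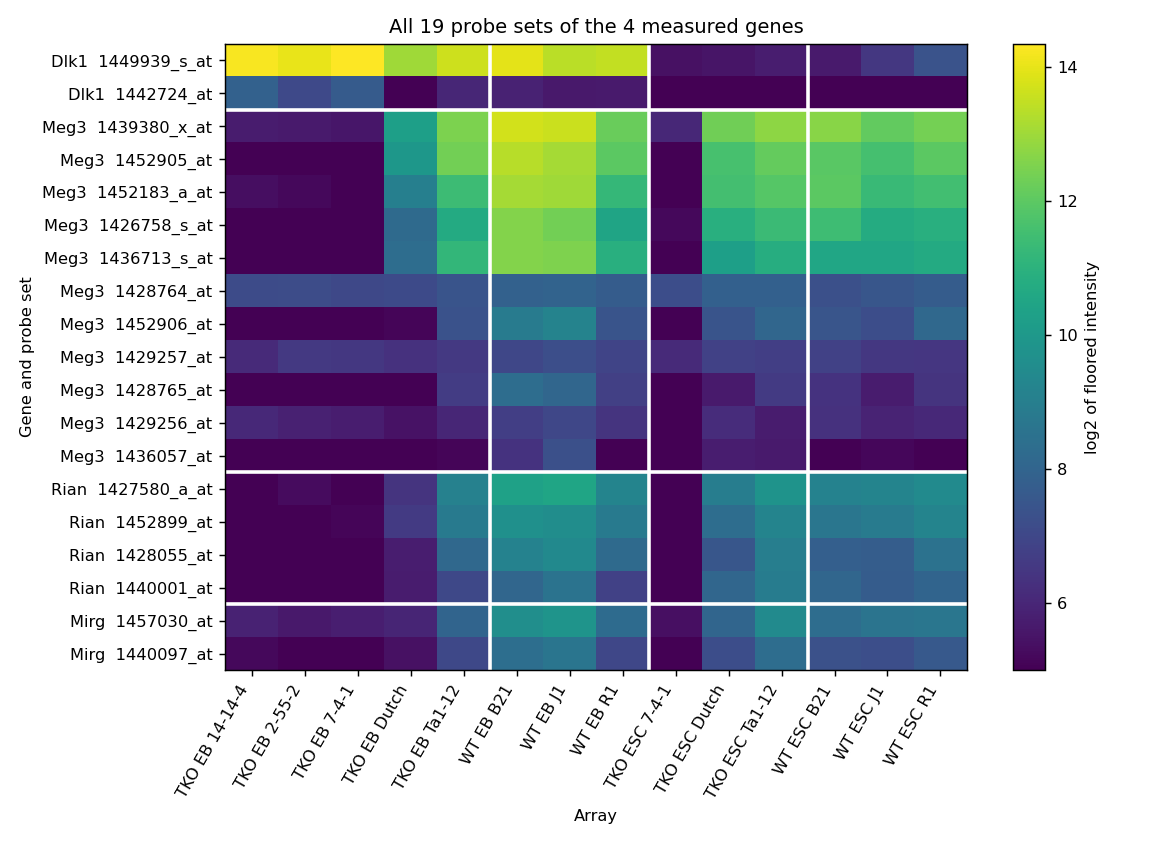
Colour gives the log2 of the floored intensity of each of the 19 probe sets (rows, by gene) on each array (columns, by group). Most Meg3 probe sets and all those of Rian and Mirg are dark in TKO EB 14-14-4, 2-55-2 and 7-4-1 and in TKO ESC 7-4-1, while several Meg3 probe sets are dim on every array.

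The noncoding genes averaged lower in TKO EB than in WT EB, without passing the test over all 5 lines. The log2 difference was -5.23 ± 1.73 for Meg3, -3.85 ± 1.06 for Rian and -2.99 ± 0.78 for Mirg (SE, n = 5 and 3, limma adjusted p = 0.304 for each). All 16 of their probe sets that passed the filter on dim probe sets were below 0 (10 for Meg3, 4 for Rian, 2 for Mirg). By their brightest probe sets Rian and Mirg did not overlap between the groups. This made 2 of 4 members lower without overlap, where 3.04% of all genes tested were. The dimmest probe set of each did overlap, at 129.3 in TKO EB Ta1-12 against 111.8 in WT EB R1 for Rian. For Mirg these arrays read 129.4 and 128.5. The remaining probe sets of Rian did not overlap. None of 14360 genes (0%) passed limma in this comparison, and 2027 had an unadjusted p under 0.05, these 3 members among them. The median difference of the 4 members was -3.42, against -0.10 for all genes.

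The spread among TKO EB lines was wide for the noncoding genes. The SD of log2 intensity was 3.24 for Meg3, 1.75 for Rian and 0.99 for Mirg in TKO EB, against 0.83, 0.69 and 0.84 in WT EB, and a median gene had 0.42 in TKO EB and 0.28 in WT EB. Without line Ta1-12, in which Rbl1 read as high as in WT, 3 of 4 members were called lower, Meg3 by -6.37 ± 1.42 (adjusted p = 0.0241), Rian by -4.59 ± 0.76 (adjusted p = 0.00992) and Mirg by -3.43 ± 0.54 (adjusted p = 0.00836, limma, n = 4 and 3). In that fit 7.69% of all genes passed, 5% as lower. Line Dutch, with Rbl1 at 377.1 in EB, was kept. Rbl1 itself followed Meg3 over the 14 arrays (Pearson r = 0.962), so its level is no independent reason to leave a line out. The EB array of Ta1-12 had the highest value of all 3 genes among TKO EB. The larger differences, smaller errors and calls without it therefore follow in part by construction. Leaving out that EB array alone gave the same calls, where 9.97% of all genes passed, 6.64% as lower.

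Dlk1 was not called between genotypes in EB. The log2 difference in TKO EB against WT EB was 0.24 ± 0.36 (adjusted p = 0.764, limma, n = 5 and 3), with a 95% interval from -0.54 to 1.02. This brighter probe set lay at the 98.4 to 99.9 percentile on EB arrays. So near the top of the scale a difference may be understated. The order of EB arrays was 7-4-1, 14-14-4, 2-55-2, B21, Ta1-12, R1, J1 and Dutch from high to low. The TKO lines 7-4-1, 14-14-4 and 2-55-2, lowest in the noncoding genes, therefore held the 3 highest Dlk1 values. For the brighter probe set their span of 16850 to 20898.1 lay just above WT EB B21 at 16133.3. The dim probe set read 241.1, 203.8 and 134 in 14-14-4, 7-4-1 and 2-55-2, against 49.3 to 59.5 in WT EB. Its difference in TKO EB against WT EB was 1.00 ± 0.51 (adjusted p = 0.411, limma over all probe sets). Line Dutch, also low in Rian and Mirg, had the lowest Dlk1. EB arrays fell into separate clusters of Meg3 level, so no pooled correlation of Dlk1 with Meg3 is given.

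In ESC no member passed the test between genotypes. The log2 differences in TKO ESC against WT ESC were -0.96 ± 0.40 for Dlk1, -2.03 ± 1.94 for Meg3, -1.36 ± 1.18 for Rian and -0.89 ± 0.87 for Mirg (SE, n = 3 and 3, limma adjusted p = 1 for each). Line 7-4-1 decided the values of the noncoding genes, which were 0.13, 0.11 and 0.24 without it. In this comparison 0% of genes passed by limma and 394 had an unadjusted p under 0.05, Dlk1 being the only member among them. Nothing is read from that for Dlk1. Its TKO ESC values lie near background and are part of the change on which the locus was selected. WT ESC R1 and J1 held the highest Dlk1 values in ESC and B21 lay within the TKO range.

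Each line measured at both stages was then compared with itself, by the brightest probe set of each gene. Dlk1 was higher in EB by 8.93, 7.49 and 7.88 in TKO 7-4-1, Dutch and Ta1-12, and by 8.29, 6.88 and 6.10 in WT B21, J1 and R1 (log2 of floored intensity, 1 array per stage). Meg3 moved by -0.51, -2.03 and -0.25 in TKO 7-4-1, Dutch and Ta1-12, and by 1.04, 1.48 and -0.17 in WT B21, J1 and R1. Rian moved by 0.03, -2.56 and -0.68 in the same TKO lines, against 1.20, 1.28 and -0.26 in the WT lines. Mirg moved by 0.38, -2.09 and -1.47, against 1.27, 1.24 and -0.37. The sign was the same for all 3 genes in each line but 7-4-1, where they lay near background at both stages.

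By these probe sets the noncoding genes were thus higher in EB in B21 and J1 and lower in R1, Dutch and Ta1-12. In 7-4-1 they were near background at both stages, while Dlk1 was higher in all 6 lines. For Meg3 the small falls in R1 and Ta1-12 depended on the probe set. The next brightest read 4040.4 in ESC and 4108.4 in EB of R1, and 4514.7 and 5239.5 in Ta1-12. The one after it fell, from 2969.6 to 2421.6 in R1 and from 3784.5 to 2747.4 in Ta1-12. The change of Dlk1 minus the mean change of Meg3, Rian and Mirg was 8.96, 9.72 and 8.68 in TKO 7-4-1, Dutch and Ta1-12, against 7.12, 5.54 and 6.36 in WT B21, J1 and R1. These values come from 6 lines and carry no test, and the TKO ones hold the Dlk1 change on which the locus was selected. They rest on Dlk1 signals near background in ESC of the TKO lines and B21, and in 7-4-1 also on noncoding signals near background, so their sizes are approximate. With the mean of all probe sets in place of the brightest they were 5.715, 5.60 and 5.29 in the TKO lines and 3.52, 2.42 and 3.73 in the WT lines. The difference between genotypes in the change of each member (the interaction) was -3.21 ± 2.60 for Meg3, -2.50 ± 1.59 for Rian and -2.11 ± 1.16 for Mirg (SE, limma adjusted p = 0.975 for each). In this test 0% of genes passed and 519 had an unadjusted p under 0.05, none of these 3 among them. For Dlk1 the difference of 1.20 ± 0.54 is a description, since it holds the change in TKO on which the locus was selected.

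**Figure D3:**
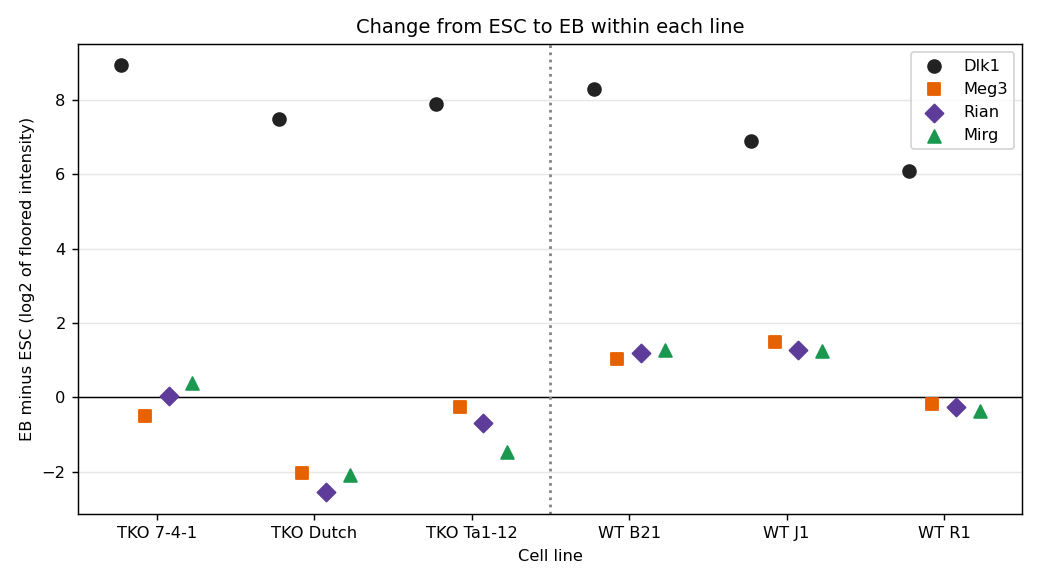
Difference between EB and ESC (log2 of floored intensity) of Dlk1, Meg3, Rian and Mirg in each line measured at both stages, TKO lines left of the dotted line and WT lines right of it. By the brightest probe sets Dlk1 lies between 6.10 and 8.93 in all 6 lines. The noncoding genes lie lower, from -2.56 in Dutch to 1.48 in J1. They are spread in Ta1-12, from -1.47 for Mirg to -0.25 for Meg3.

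None of the noncoding genes passed in WT EB against WT ESC. Meg3 had 0.78 ± 1.94 (adjusted p = 0.764), Rian 0.74 ± 1.18 (adjusted p = 0.63) and Mirg 0.71 ± 0.87 (adjusted p = 0.521, limma, n = 3 and 3). By probe set, 1 of 10 tested for Meg3 was called, by 1.58 ± 0.53 (limma over all probe sets, adjusted p = 0.031), where 40.3% of all probe sets were. It was dim, at 110.6 to 326.5 in WT EB against 52.3 to 84.2 in WT ESC, and none of the probe sets of Rian or Mirg was called. The wide errors come from one estimate of spread over all groups, which takes in the TKO lines. In TKO EB against TKO ESC all 4 measured members were at least 2-fold apart, as were 26.8% of all genes. Nothing is read from that count, because the locus was selected on this comparison. Meg3 stood at -2.42 ± 1.73, Rian at -1.76 ± 1.06 and Mirg at -1.39 ± 0.78. The low lines 14-14-4 and 2-55-2 have no ESC array, and within the lines measured at both stages the mean change was -0.93 for Meg3, -1.07 for Rian and -1.06 for Mirg. Without TKO ESC 7-4-1 the values were -4.58, -3.22 and -2.52, and without TKO ESC Ta1-12 they were -1.23, -0.82 and -0.48. The arrays of those 3 overlapped between the stages. Comparisons that share arrays, such as this one and TKO EB against WT EB, are not independent.

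Genes on both sides of the locus did not share the pattern of the low lines. The list of neighbours held 21 names, of which 17 were tested, 7 on the side of Dlk1 and 10 on the side of Mirg. None was called in TKO EB against WT EB, where the fitted differences ran from -0.39 to 0.65 with a median of 0.11, nor in TKO ESC against WT ESC (-0.41 to 0.28, median 0). Set against the WT EB mean, the neighbours ran from -0.39 to 1.20 in 14-14-4, from -0.72 to 0.22 in 2-55-2 and from -0.85 to 0.70 in 7-4-1, while Meg3 stood at -7.46, -7.49 and -7.64 in these lines. Dutch was the most uneven, with the neighbours from -1.32 (Evl, an actin regulator) to 2.89 (Mok, a protein kinase). In ESC of 7-4-1 they ran from -0.59 to 0.42, and Meg3 stood at -6.35.

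In WT EB against WT ESC 3 of the 17 neighbours rose and 2 fell, where 26.5% of all genes rose and 17.4% fell, a share not above the background. Rcor1, a corepressor subunit, rose by 1.33 ± 0.30 (adjusted p = 0.00402) and Slc25a47, a mitochondrial carrier, by 0.90 ± 0.28 (adjusted p = 0.022). Ankrd9 (-1.12 ± 0.25, adjusted p = 0.00413) and the chaperone Hsp90aa1 (-0.72 ± 0.16, adjusted p = 0.00355) fell (limma, n = 3 and 3).

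**Figure D4:**
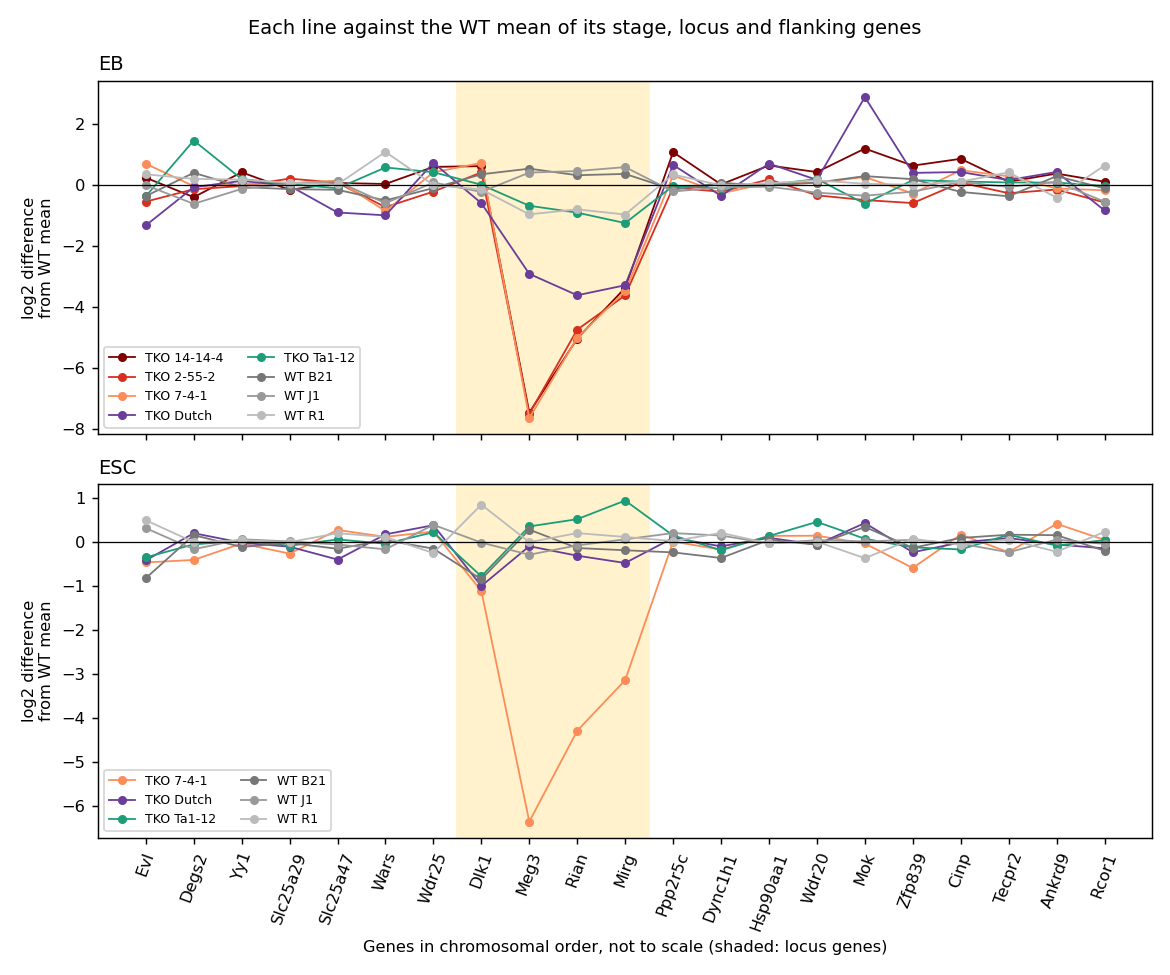
Log2 difference of each line from the WT mean of the same stage (EB above, ESC below) for the 4 measured locus genes (shaded) and 17 flanking genes, in chromosomal order and not to scale. Outside the shaded part the lines 14-14-4, 2-55-2 and 7-4-1 stay between -0.85 and 1.20 in EB, and inside it Meg3 reaches -7.64.

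Most factors that set or keep imprints fell with differentiation, and none passed the test between genotypes. Of 17 listed, 11 fell and 1 rose in WT EB against WT ESC (median -1.04, against 0.13 for all genes), where 17.4% of all genes fell and 26.5% rose. Zfp57, which binds methylated imprint control regions, fell by 2.18 on the log2 scale (SE 0.42, adjusted p = 0.00181), and its corepressor Trim28 by 0.89 (SE 0.15, adjusted p = 0.000917). Tet1, which oxidises methylcytosine, fell by 3.26 (SE 0.61, adjusted p = 0.00159). The methyltransferase Dnmt3a rose by 2.53 ± 0.42 (adjusted p = 0.000799, limma, n = 3 and 3). In ESC of 7-4-1, low in Meg3, Zfp57 read 582, beside 514 and 697 in TKO ESC Dutch and Ta1-12, against 243 to 559 in WT ESC. In TKO EB against WT EB and in TKO ESC against WT ESC 0 of 17 were called, with medians of 0.58 and 0.14.

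Most imprinted genes of other loci rose with differentiation. Of 18 tested, 11 rose and 1 fell in WT EB against WT ESC (median 1.60, where 26.5% of all genes rose and 17.4% fell), and in TKO EB against TKO ESC 11 were at least 2-fold higher and 1 lower, where 17.9% and 8.85% of all genes were. The growth factor Igf2 rose by 5.40 ± 0.75 (adjusted p = 0.000336), the zinc finger factor Plagl1 by 3.14 ± 0.40 (adjusted p = 0.000205), Mest by 2.51 ± 0.33 (adjusted p = 0.00025) and Ndn, a growth suppressor of neurons, by 2.35 ± 0.28 (adjusted p = 0.000162, limma, WT, n = 3 and 3). None of the 18 was called in TKO EB against WT EB, with differences from -1.66 to 0.90. Igf2 intensity was 20734 to 22885 in TKO EB of the 3 lines low in Meg3, 14520 in Dutch, 22116 in Ta1-12 and 21206 to 22737 in WT EB. Apart from Dutch these values lie near the highest of any probe set (25701.6), so differences among them may be understated.

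Notch genes, to which Dlk1 is related, moved both ways. Of 16 listed, 4 rose and 2 fell in WT EB against WT ESC (median 0.89), near the 26.5% and 17.4% of all genes. The receptor Notch2 (1.40 ± 0.37, adjusted p = 0.00957), the target Hes1 (1.25 ± 0.31, adjusted p = 0.00675) and the Dlk1 homologue Dlk2 (1.20 ± 0.37, adjusted p = 0.0201) rose, and the ligand Dll3 fell by 1.97 on the log2 scale (SE 0.50, adjusted p = 0.0078, limma, n = 3 and 3). None was called between genotypes in EB (-0.99 to 0.28) or in ESC (-1.01 to 0.26).

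Marker signal of mesenchyme, in which Dlk1 is known to be expressed, differed among EB lines. Summed over 10 mesenchyme and fibroblast markers, intensity was 56249.4, 82213.3, 113650.4, 27027.6 and 89168.3 in TKO EB of 14-14-4, 2-55-2, 7-4-1, Dutch and Ta1-12, against 91582.8 to 107226 in WT EB. Dutch, with the lowest sum, also had the lowest Dlk1, whereas 14-14-4, with the next lowest sum, had the second highest. Muscle markers summed to 605.6 in 14-14-4 and 58138.3 in 2-55-2, against 6647.3 to 44536 in WT EB. In such bulk samples fewer cells of a type and less RNA per cell cannot be told apart, and the part of cell makeup in the differences between lines was not tested. In ESC the mesenchyme sum was 570.5 to 808.9 in TKO and 763.1 to 1077.6 in WT. Of the 10 markers, 4 (Postn, Lum, Twist1 and Prrx1) were under 32 on all TKO ESC arrays and 1 (Lum) on all WT ESC arrays. Others were above it on every ESC array, such as Thy1 (152 to 200.5 in TKO, 255.4 to 430 in WT) and Col1a2 (81.3 to 314.2 in TKO, 75.6 to 310.5 in WT).

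The other marker lists moved with the lines as well. Endoderm markers summed to 5947 to 68265.1 in TKO EB against 20481.4 to 48145.9 in WT EB, neural ones to 1171 to 16403.9 against 2734.6 to 8367.7, and pluripotency ones to 164.4 to 42760.3 against 229.8 to 536.2. Preadipocyte markers summed to 667.3 to 5595.2 against 944.2 to 3762.5, trophoblast ones to 469.3 to 822.4 against 637.1 to 803.8 and pituitary ones to 136.5 to 1643.3 against 742.2 to 1504.5.

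The genes most like Dlk1 over 14 arrays were Col3a1 (Pearson r = 0.996), Itm2a, Ptn and Nrp1 (0.991 each) and Col1a1 (0.99). All 5 separate EB from ESC, which sets such a correlation. After the mean of each group was removed, the most alike were Actr1a (0.916), Capn2 (0.912), Kmt2a (0.911), Gnas (0.905) and Cdk14 (0.9). These are descriptions over 14 arrays, of which 12 come from the same 6 lines.

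For Meg3 the most alike genes were of another kind. Rian had r = 0.975 and Mirg 0.922. The nearest genes outside the locus were Rbl1 (0.962), Decr2 (0.957), the Y-linked Uty (0.946) and Eif2s3y (0.934), and Ubald1 (0.928). With group means removed they were Rbl1 (0.971), Paqr5 and Decr2 (0.929 each), and Sctr and Coq2 (0.928 each). Rian and Mirg were then at 0.957 and 0.85. Eif2s3y read 4.9, 3 and 18.7 in TKO EB of 14-14-4, 2-55-2 and 7-4-1 and 8.2 in TKO ESC of 7-4-1, while TKO EB Dutch and Ta1-12 read 2681.6 and 597.5, against 2076.4 to 2236.4 in WT EB. The 4 arrays low in Meg3 were thus also those lowest in the Y-linked gene and lowest in Rbl1. The part of the origin or sex chromosomes of these lines in the Meg3 values was not tested.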

How the data were processed

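Per the labels' protocols, biotin-labelled targets were made from Trizol-extracted total RNA with Affymetrix reagents. The authors deposited probe set intensity values on a linear scale (0.596 to 25701.6) for 14 arrays. For summarisation, background correction, scaling and build nothing is stated in the labels. The highest and lowest array medians were 0.374 apart on the log2 scale, and no rescaling was applied.

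Intensities under 32 were raised to 32 before log2. Of the probe sets, 34958 carried 1 gene symbol, 932 several and 9211 none. The probe set of highest mean stood for a gene. A gene entered the test if 3 or more arrays had it above their 40th percentile. This kept 14360 genes, with 18 of the 19 member probe sets passing in a second fit over 31122 probe sets. A mean per group was fitted with limma 3.58.1 in R 4.3.3 (eBayes with trend) over all arrays, two-sided. Adjusted p-values are from limma, by Benjamini-Hochberg over the genes of each comparison. The procedure was tested on simulated normal data with the same SD in every group, so unequal spread between groups was not covered.

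Members, gene lists (neighbours, imprint factors, Notch, thyroid hormone, other imprinted and retrotransposon-derived genes), cell type markers and tests were chosen with earlier results of these data known. Named genes were the members, the genes of smallest adjusted p in each list (at most 4), and the 5 most correlated with Dlk1 and with Meg3. Arrays of a group are different lines, so p-values reflect spread between lines and their number limits the precision. Line names pair ESC with EB. Deviations from group means correlated at 0.069, 0.197 and 0.092 in TKO 7-4-1, Dutch and Ta1-12 and at -0.046, -0.077 and -0.037 in WT B21, J1 and R1. Alternatives were other floors, a pseudocount, quantile normalization, centring, no filter, averaged probe sets, no trend, line blocks and leaving out arrays or line Ta1-12.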

Additional observations from a re-analysis of the deposited data

Results flagged for a closer look

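Within TKO EB the array of line Ta1-12 stood apart from the other 4 on the linear scale for each noncoding gene. Its gap to the next array was 0.793 of the whole range for Meg3, 0.89 for Rian and 0.938 for Mirg, above the limit for 5 samples. On the log2 scale the gap was above that limit for Mirg alone (0.86). Chance flags about 1 in 20 such groups, and the values are not independent, since the genes lie in 1 cluster. The cause was not tested.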

How the results depend on the processing

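The call of Dlk1 in WT EB against WT ESC was kept under every alternative run (log2 difference 3.91 to 7.51, adjusted p at most 0.00231), 1 member being called each time, also with the line as a replicate block, which changed no call of a member. As a random block the line had a consensus correlation of 0.032. In TKO EB against WT EB the count of members called was 3 without line Ta1-12, ran from 0 to 3 when single arrays were left out, reaching 3 without TKO EB Ta1-12, and was 0 otherwise. Meg3, Rian and Mirg then had -6.372, -4.593 and -3.432, and over all alternatives their adjusted p ran from 0.0216, 0.00942 and 0.00836 to 0.751. Genes called in that comparison numbered 0, but 1105 without line Ta1-12, 1431 without its EB array, 8 with a floor of 64 and 2 without WT EB R1. Members at least 2-fold apart in TKO EB against TKO ESC ranged from 2 to 4 when arrays were left out, with 2 without TKO ESC Ta1-12. Without TKO ESC 7-4-1 Mirg had -2.516 there. The change per line of Dlk1 minus the noncoding genes was 8.369 in 7-4-1 with a floor of 64 and 8.129 in Ta1-12 with Meg3 alone. Averaging all probe sets gave 5.715, 5.599 and 5.294 in TKO 7-4-1, Dutch and Ta1-12, against 3.524, 2.421 and 3.733 in the WT lines in the order B21, J1, R1, with 5.008 for Dlk1 in TKO EB against TKO ESC, since the dim Dlk1 probe set enters the mean. The cause of the other shifts was not tested. Signals near background limit the size of each difference of a gene in the low lines.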

Other observations

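Genes that handle thyroid hormone, the substrate of the unmeasured Dio3, were called about as often as other genes in WT EB against WT ESC, where 2 of 6 tested rose and 1 fell, against 26.5% and 17.4% of all genes. The thyroid hormone receptor Thra rose by 3.49 ± 0.42 (limma adjusted p = 0.000186) and the carrier Ttr, also an endoderm marker, by 8.15 ± 0.53 (limma adjusted p = 2.89e-06). The activating enzyme Dio2 fell by 1.10 on the log2 scale (SE 0.40, limma adjusted p = 0.0383), and Crym stood at -1.31 ± 0.72 (limma adjusted p = 0.153). None of the 6 was called in TKO EB against WT EB.

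Of the retrotransposon-derived relatives of the unmeasured Rtl1, 6 of 16 names were tested and 2 rose in WT EB against WT ESC, where 26.5% of all genes rose. They were Rtl3, by 2.87 ± 0.86 (limma adjusted p = 0.0169), and Rtl6, by 0.83 ± 0.29 (limma adjusted p = 0.0356), with Rtl5 at 0.36 ± 0.26 and Ldoc1 at -0.83 ± 0.50. Rtl3 read 22, 425, 140, 11 and 206 in TKO EB of 14-14-4, 2-55-2, 7-4-1, Dutch and Ta1-12, against 163, 573 and 138 in WT EB of B21, J1 and R1. None of the 6 was called between genotypes in EB.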
